A study of Mus musculus with 2 samples.

Results

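The endoplasmic reticulum (ER) folding and translocation machinery is described here in BV2 cells, an immortalized microglial line of the mouse, cultured in DMEM/F12 or in DMEM. The 55 genes were taken from a list of ER chaperones, folding enzymes, stress sensors, degradation factors and subunits of the translocation, signal peptidase and glycosylation complexes. The genes were matched by symbol and not by a threshold on their values, but the list was drawn up when lower values of some of its genes in DMEM/F12 were already known. Of these 55 genes, 54 had at least 1 transcript cluster, a group of probes, that the platform's annotation pairs with exactly 1 symbol, out of 19938 genes so measured. Ero1l, Ero1lb and Vimp were found under their current symbols Ero1a, Ero1b and Selenos. Sec61g shares its clusters with other genes and was not measured.

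According to the methods, the cells were plated in DMEM/F12 and on the next day moved to DMEM or kept in fresh DMEM/F12 for 1 d. Serum and antibiotics were in each medium, and no genotype or drug differed. The DMEM was a high-glucose form. DMEM/F12 is DMEM combined with the richer F-12 nutrient mixture, which adds amino acids, trace metals, vitamins, lipids and hypoxanthine. Concentrations of the components that both media share, glucose among them, were not compared here. The RNA of each medium was hybridized to 1 Affymetrix Mouse Gene 1.0 ST array, so the series holds 1 DMEM/F12 array and 1 DMEM array, and the DMEM cells are those that changed medium type.

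Secreted and membrane proteins enter the ER through the SEC61 channel, lose their signal peptide, receive N-linked glycans and fold with the help of BiP, calnexin, calreticulin and protein disulfide isomerases. Proteins that fail to fold are drawn back to the cytosol and degraded. When unfolded proteins build up, the sensors IRE1, PERK and ATF6 start the unfolded protein response, in which the transcription factors XBP1 and ATF6 induce many genes of the folding, translocation and degradation machinery. Macrophages and microglia rely on this machinery for cytokines, surface receptors and lysosomal enzymes.

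Values are log2 expression values as deposited, and each difference is the DMEM/F12 value minus the DMEM value. With 1 array per medium there was no replicate error, so no test was run. Differences compare these 2 arrays, and a difference between the media cannot be told apart from a difference between the 2 cultures. Nor can a change in the number of cells that express a gene be told apart from a change in RNA per cell. The quartiles of the 2 arrays over all 28944 clusters were close (3.31, 4.77 and 6.66 in DMEM/F12, 3.30, 4.75 and 6.67 in DMEM). Background, set by 1248 chemosensory receptor clusters (smell, pheromone and taste) at their 95th percentile, was 4.17 in DMEM/F12 and 4.15 in DMEM, and all 54 measured genes were above it. Of 18 markers of microglia and macrophages, 16 were above background on both arrays and Aif1 and P2ry12 were not. The differences of these 18 genes had a median of 0.01 but ran from -0.80 in C1qc to 0.44 in C1qa, with Tmem119 at -0.66, C1qb at -0.60, Csf1r at -0.32 and Trem2 at 0.40. Of the marker lists of other cells, that of fibroblasts and vessels had differences of 1 sign: all 6 of its genes were lower in DMEM/F12, by 0.08 to 0.34, with 3 of them above background on both arrays. The part of either marker list in the results was not tested.

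Most genes of the machinery had a lower value in DMEM/F12 than in DMEM. Of the 54 genes, 41 were lower and 13 higher, whereas 45.5% of all genes were lower and 47.2% higher (47.4% lower among the 13225 genes above background). The median log2 difference was -0.24 over the 54 genes and 0.00 over all genes. At a difference of at least 0.322 on the log2 scale, a ratio of 5 to 4, 16 of the 54 genes (29.6%) were lower and 1 was higher, against 6.5% lower and 7.22% higher among all genes and 5.99% lower among those above background. At 1.5-fold or more, 3 genes were lower (5.56%) and 0 higher, against 0.727% and 0.928% of all genes and 0.635% lower of those above background.

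**Figure D1:**
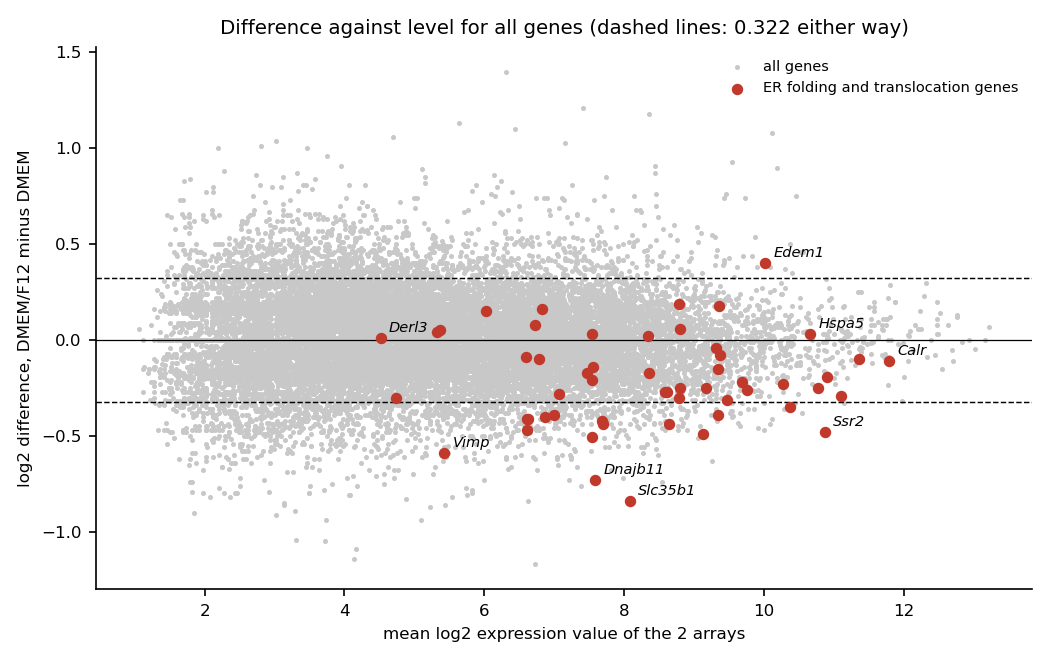
The y axis gives the difference in log2 value, DMEM/F12 minus DMEM, and the x axis the average of both log2 values. Gray dots are all 19938 genes and red dots the 54 measured genes of the ER machinery, with dashed lines at 0.322 either way; 41 of the red dots lie below 0, from dim genes such as Vimp to bright ones such as Ssr2.

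The lower values were found at most levels of signal. Of the 19 genes of the machinery with a mean log2 value from 6 to below 8, 9 were lower by at least 0.322, where 6.04% of all genes at that level were. From 8 to below 10 it was 4 of 20, against 5.43%, and at 10 or more 2 of 10, against 3.18%. In the lowest range, from 4 to below 6, it was 1 of 5, against 5.71%, and the median of those 5 was 0.01. The medians of the brighter ranges were -0.28, -0.25 and -0.21.

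The genes around BiP, the HSP70 chaperone of the ER lumen, had the lowest median of the 8 role groups, -0.39. Of these 11 genes, 9 were lower and 7 of them by at least 0.322, against 45.5% and 6.5% of all genes. The counts of the other role groups and of the promoter groups below can be set beside the same shares. Hspa5, which encodes BiP itself, had 10.67 in DMEM/F12 and 10.64 in DMEM, a difference of 0.03. The values of its cofactors differed more. Slc35b1 encodes a membrane transporter that brings ATP into the ER, where BiP consumes it. Slc35b1 had 7.66 in DMEM/F12 and 8.50 in DMEM, which was 1.79-fold lower and the 15th lowest difference of all 19938 genes. Dnajb11, a DnaJ cochaperone that hands unfolded chains to BiP, had 7.22 in DMEM/F12 and 7.95 in DMEM, 1.66-fold lower and the 46th lowest difference.

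The other DnaJ cochaperones on the list were also lower, and each passed 0.322. Dnajc10, a disulfide reductase that works with BiP in degradation, had 6.37 in DMEM/F12 and 6.84 in DMEM. Dnajc3, also known as p58IPK, had 6.41 in DMEM/F12 and 6.82 in DMEM, and its 2 clusters carry identical values. Dnajb9, which represses IRE1 through BiP, had 6.67 in DMEM/F12 and 7.07 in DMEM. The 4 listed DnaJ cochaperones thus had differences between -0.73 and -0.40. DnaJ genes of the ER outside the list did not share these differences. Dnajc1 and Dnajb12, named after their values were seen, differed by -0.12 and 0.14, and Dnajb14 by 0.63.

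Sdf2l1, a partner of Dnajb11 in the ER lumen, and Manf, a secreted factor that binds BiP, each differed by -0.39. Sdf2l1 had 9.15 in DMEM/F12 and 9.54 in DMEM, and Manf had 6.80 in DMEM/F12 and 7.19 in DMEM. Both of these genes were 1.31-fold lower. Smaller differences were found for Hyou1, the nucleotide exchange factor GRP170 (8.48 in DMEM/F12 and 8.75 in DMEM), and for Hsp90b1, the HSP90 of the ER known as GRP94 (9.04 in DMEM/F12 and 9.29 in DMEM). Sil1, the other exchange factor of BiP, had 6.77 in DMEM/F12 and 6.69 in DMEM, and with Hspa5 it made up the 2 genes of the group that were not lower.

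**Figure D2:**
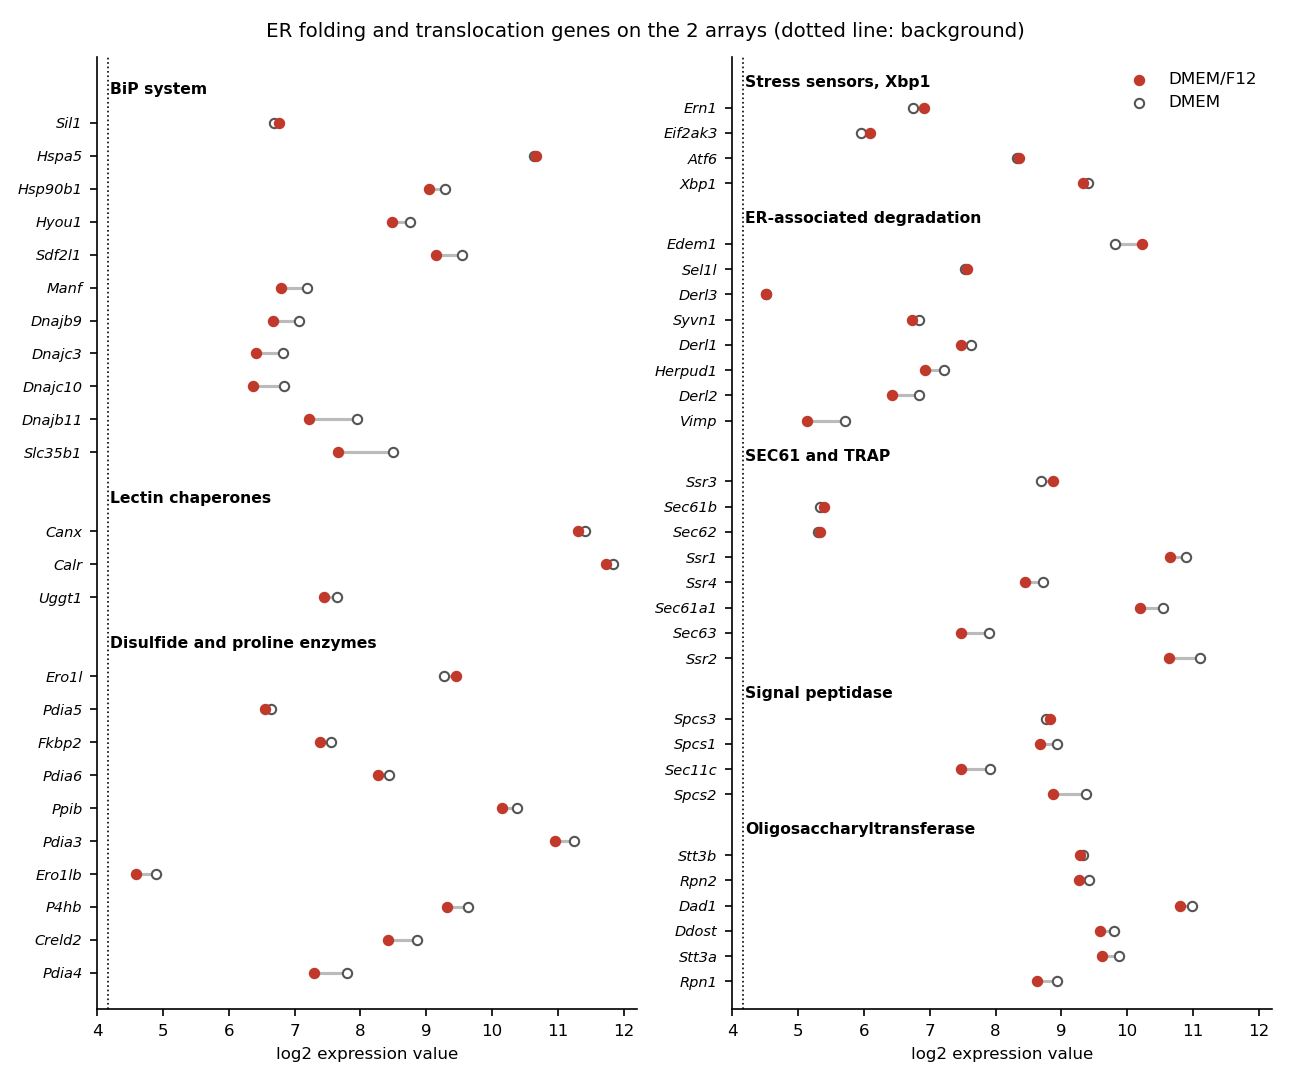
Log2 expression value (x axis) of each of the 54 measured genes (y axis, grouped by role and ordered by difference) on the DMEM/F12 array (red) and the DMEM array (white), 1 array per medium, with the dotted line at background. The red dot lies left of the white dot for 41 genes, farthest for Slc35b1 (7.66 in DMEM/F12 and 8.50 in DMEM), and right of it by the most for Edem1.

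The promoters were searched for 3 known elements of the unfolded protein response, because many of the listed genes are classical targets of ATF6 and XBP1. The elements were ERSE (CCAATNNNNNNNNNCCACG), ERSE-II (ATTGGNCCACG) and UPRE (TGACGTGG), on both strands, in RefSeq windows of GRCm38.p6 that run from 250 bases before to 50 bases after a transcription start. The CCACG of ERSE and ERSE-II is part of UPRE when read on the other strand, so the elements can overlap. Windows were found for 46 of the 55 genes, and 10 of these (21.7%) held an ERSE, against 37 of all 27025 genes with a window (0.137%). Hyou1, Sil1, Manf, Atf6, Derl1, Sec61a1, Ssr2, Spcs3 and Sec11c had no window and could not be searched. The ERSE matches are shown because they let the genes with this element be set beside those without it, and they are read in the direction of the element, with its fixed letters in capitals and the spacer in lower case.
Hspa5: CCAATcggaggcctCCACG
Hsp90b1, distal match: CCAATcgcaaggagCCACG
Hsp90b1, proximal match: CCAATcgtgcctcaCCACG
Dnajc3: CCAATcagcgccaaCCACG
Creld2: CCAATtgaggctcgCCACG
Pdia6: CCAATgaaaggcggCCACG
Calr: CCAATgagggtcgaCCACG
Canx: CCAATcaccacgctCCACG
Ero1lb: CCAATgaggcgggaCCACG
Syvn1: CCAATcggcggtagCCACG
Derl3: CCAATggggaagtcCCACG

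An ERSE-II was found in 2 of the 46 genes with a window (4.35%), against 0.0444% of all genes with a window. They were Dnajb11, with a match just after the start at chr16:22857852-22857862, and Herpud1, with a match before the start at chr8:94386377-94386387. UPRE was found in 0 of the 46, against 0.714% of all genes with a window. The 10 genes with an ERSE had differences from -0.44 in Creld2 to 0.03 in Hspa5, with a median of -0.14, 8 of them lower and 2 by at least 0.322. The 35 measured genes with a window and no ERSE had a median of -0.25, with 27 lower and 10 by at least 0.322. These 35 include Dnajb11 and Herpud1, which hold an ERSE-II. The 12 genes with any of the 3 elements had a median of -0.21, with 10 lower and 3 by at least 0.322. Without any of them, 33 genes had a median of -0.23, with 25 lower and 9 by at least 0.322. Lower values were found among genes with and without an exact match in these windows. Inexact matches and more distant positions were not searched, so a gene without a match may still hold an element. The part of the unfolded protein response in the differences was not tested. Of the genes outside the list whose window holds an ERSE, 11 were measured, with a median of -0.14, 7 lower, 0 lower by 0.322 or more and 1 higher by as much. Acnat2, Calr4 and Olfr59 among them were below background, and others lay near it, such as Tdrd9 (4.03 in DMEM/F12 and 4.17 in DMEM). The median of these genes therefore rests largely on dim signals.

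The promoters of Hspa5, Creld2 and Slc35b1 show this spread, each printed as the 250 bases before the start, on the strand of the gene, with the fixed letters of an ERSE in capitals. Hspa5 (chr2:34771840-34772089, plus strand) holds the element nearest to the start among these promoters, and its values differed by 0.03. Creld2 (chr15:88819396-88819645, plus strand) holds it on the opposite strand and was 1.36-fold lower in DMEM/F12. Slc35b1 (chr11:95384606-95384855, plus strand), with the lowest difference of the list, has no match to any of the 3 elements in its window.
Hspa5: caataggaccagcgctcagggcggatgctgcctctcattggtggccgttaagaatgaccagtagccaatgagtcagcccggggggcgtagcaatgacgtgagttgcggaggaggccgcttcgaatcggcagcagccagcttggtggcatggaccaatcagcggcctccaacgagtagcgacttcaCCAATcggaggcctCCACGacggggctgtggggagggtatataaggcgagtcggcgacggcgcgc
Creld2: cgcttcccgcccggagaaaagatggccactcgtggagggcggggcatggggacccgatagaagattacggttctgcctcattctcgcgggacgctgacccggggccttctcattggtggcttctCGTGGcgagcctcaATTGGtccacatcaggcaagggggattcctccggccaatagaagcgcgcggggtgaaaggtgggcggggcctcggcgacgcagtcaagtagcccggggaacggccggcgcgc
Slc35b1: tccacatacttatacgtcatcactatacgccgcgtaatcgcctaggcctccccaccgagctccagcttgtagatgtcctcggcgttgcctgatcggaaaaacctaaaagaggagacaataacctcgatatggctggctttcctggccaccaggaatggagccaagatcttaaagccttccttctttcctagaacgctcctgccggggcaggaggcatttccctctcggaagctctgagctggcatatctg

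The disulfide isomerases, proline isomerases and oxidases had a median of -0.26, with 9 of 10 genes lower and 2 by at least 0.322. Pdia4 (ERp72), an isomerase with several thioredoxin domains, had a mean of 7.29 in DMEM/F12 and 7.80 in DMEM over its 2 clusters. The brighter cluster had 9.52 in DMEM/F12 and 9.84 in DMEM, a difference of -0.32 that falls just short of 0.322, and the dimmer had 5.06 in DMEM/F12 and 5.75 in DMEM, a difference of -0.69. The size of the Pdia4 difference thus depended on the cluster, while its sign did not. Creld2, an isomerase-like protein induced by ER stress, had 8.42 in DMEM/F12 and 8.86 in DMEM, a difference of -0.44.

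The remaining isomerases were lower by less than 0.322. P4hb, the founding disulfide isomerase, had 9.32 in DMEM/F12 and 9.63 in DMEM, and Pdia3 (ERp57), which works on glycoproteins with calnexin and calreticulin, had 10.96 in DMEM/F12 and 11.25 in DMEM. Pdia6 differed by -0.17 and Pdia5 by -0.09. All 5 listed genes of the family were lower. Related genes outside the list are counted below with the other folding enzymes. The proline isomerase genes Ppib (cyclophilin B) and Fkbp2 differed by -0.23 and -0.17.

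The oxidases that recharge the isomerases had opposite signs. Ero1l had 9.45 in DMEM/F12 and 9.27 in DMEM, a difference of 0.18 and the highest of this role group. Ero1lb had 4.59 in DMEM/F12 and 4.89 in DMEM, a difference of -0.30. Neither passed 0.322.

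The lectin chaperones, which bind glycans on folding proteins, differed little. Calr (calreticulin) had 11.73 in DMEM/F12 and 11.84 in DMEM, and Canx (calnexin) had 11.31 in DMEM/F12 and 11.41 in DMEM. Uggt1, the glucosyltransferase that returns unfolded glycoproteins to them, had 7.44 in DMEM/F12 and 7.65 in DMEM. All 3 were lower and 0 passed 0.322.

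The subunits that bring chains into the ER were split. Sec61a1, the pore of the SEC61 channel, had 10.20 in DMEM/F12 and 10.55 in DMEM (1.27-fold lower), and Sec63, which recruits BiP to the channel, had 7.48 in DMEM/F12 and 7.90 in DMEM (1.34-fold lower). The channel subunit gene Sec61b, however, differed by 0.05, with 0.02, 0.04 and 0.10 in its 3 clusters, and Sec62, the partner of Sec63, by 0.04. Both genes were dim. Sec61b had 5.39 in DMEM/F12 and 5.34 in DMEM, and Sec62 had 5.34 in DMEM/F12 and 5.30 in DMEM. The translocon-associated TRAP complex had a median of -0.26 over its 4 subunits. Ssr2, its beta subunit, had 10.63 in DMEM/F12 and 11.11 in DMEM (1.39-fold lower), and Ssr4 and Ssr1 differed by -0.27 and -0.25. Ssr3, the gamma subunit, was the exception, with 8.88 in DMEM/F12 and 8.69 in DMEM. Over these 8 genes, 5 were lower, 3 of them by at least 0.322, and the median was -0.26.

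The 4 listed genes of the signal peptidase complex, which cuts signal peptides in the ER lumen, had a median of -0.35. Spcs2 had 8.88 in DMEM/F12 and 9.37 in DMEM (1.40-fold lower), and Sec11c, a catalytic subunit, had 7.48 in DMEM/F12 and 7.92 in DMEM (1.36-fold lower). Spcs1 differed by -0.25, within 0.322. Spcs3 had 8.83 in DMEM/F12 and 8.77 in DMEM, so 3 of the 4 listed subunits were lower.

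All 6 listed subunits of the oligosaccharyltransferase, the enzyme that transfers glycans onto entering chains, were lower in DMEM/F12, each by less than 0.322. The median of these 6 was -0.21. Further subunits outside the list are given below with the wider lists. Among the 6, the ribophorin gene Rpn1 had the lowest difference, with 8.63 in DMEM/F12 and 8.93 in DMEM. The catalytic subunit genes differed by -0.26 (Stt3a) and -0.04 (Stt3b). Ddost, Dad1 and Rpn2 lay between them, at -0.22, -0.19 and -0.15.

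**Figure D3:**
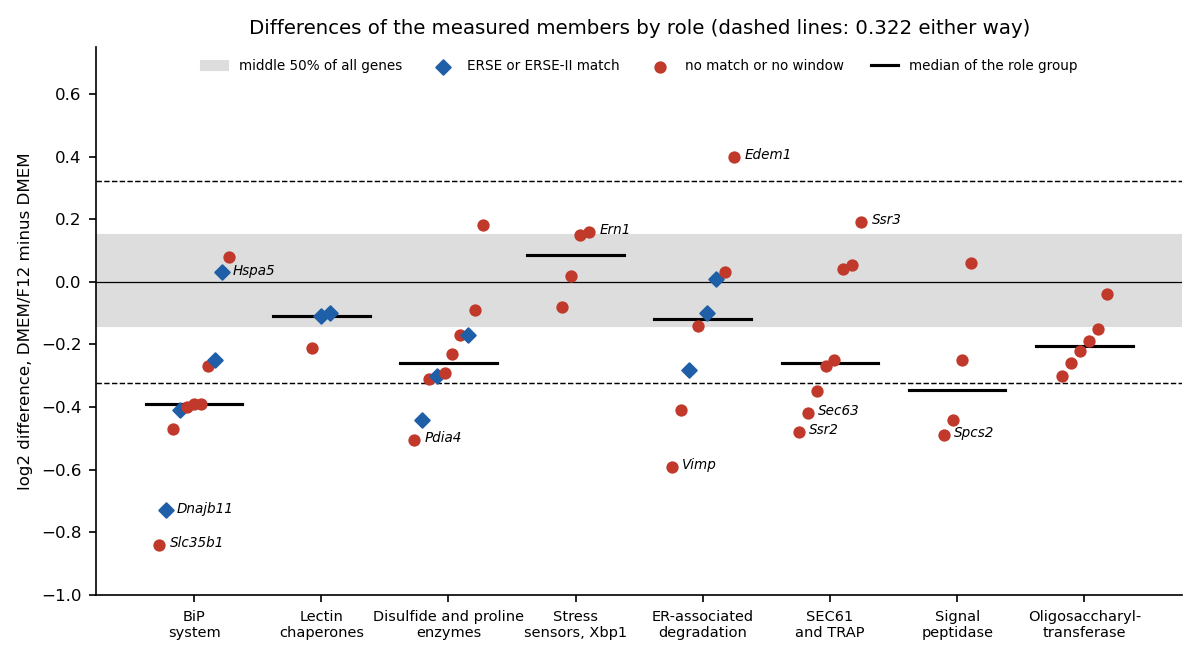
Differences in log2 value between DMEM/F12 and DMEM (y axis) of the 54 measured genes in 8 role groups (x axis). Blue diamonds are genes with an ERSE or ERSE-II match in the promoter window. Red circles are genes with no such match and genes for which no window was found. Black bars are group medians, the gray band is the middle 50% of all genes, and dashed lines mark 0.322 either way. The BiP system has the lowest median (-0.39) and the stress sensors with Xbp1 the highest (0.09).

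The degradation factors spanned the widest range above and below 0. Vimp encodes selenoprotein S, which anchors the extraction machinery to the ER membrane, and had 5.13 in DMEM/F12 and 5.72 in DMEM (1.51-fold lower, the 134th lowest difference of all genes). Derl2, a Derlin of the retrotranslocation channel, had 6.42 in DMEM/F12 and 6.83 in DMEM (1.33-fold lower). Edem1 went the other way. Edem1 directs misfolded glycoproteins to degradation and had 10.22 in DMEM/F12 and 9.82 in DMEM (1.32-fold higher), the highest difference of the 54 genes and the only one at 0.322 or more in that direction.

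The ubiquitin ligase genes of the pathway were close between the arrays. Syvn1 (HRD1) had 6.73 in DMEM/F12 and 6.83 in DMEM, and its cofactor Sel1l had 7.56 in DMEM/F12 and 7.53 in DMEM. Herpud1, a stress-induced scaffold of that ligase, differed by -0.28, Derl1 by -0.14 and Derl3 by 0.01. Of the 8 degradation genes, 5 were lower, 2 of them by at least 0.322, and the median was -0.12.

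The sensors and the transcription factor Xbp1 differed by at most 0.16 in size, with Xbp1 the only 1 of the 4 that was lower. Xbp1, whose mRNA is spliced by IRE1, had 9.33 in DMEM/F12 and 9.41 in DMEM, and the array value does not separate the spliced from the unspliced form. Atf6 had 8.35 in DMEM/F12 and 8.33 in DMEM. Ern1, which encodes IRE1, had 6.91 in DMEM/F12 and 6.75 in DMEM, and Eif2ak3, which encodes PERK, had 6.10 in DMEM/F12 and 5.95 in DMEM. The median of these 4 genes was 0.09, with 3 higher and 0 past 0.322 in either direction.

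Genes beyond the 55 were described through 6 wider lists with 181 measured genes, given by their medians and counts. The other genes of translocation, signal recognition and N-glycosylation came closest to the machinery, with a median of -0.19, 27 of 36 genes lower and 12 (33.3%) lower by at least 0.322, against 6.5% of all genes. Dpagt1, the enzyme that starts the glycan precursor, had 6.74 in DMEM/F12 and 7.35 in DMEM (1.53-fold lower). Alg8, a glucosyltransferase of the same precursor, had 8.35 in DMEM/F12 and 8.82 in DMEM. Tram1, Ostc, Sec11a, Krtcap2 and Srprb, named after their values were seen, were among the 12, with differences of -0.46, -0.43, -0.40, -0.38 and -0.36. Tram1 assists the SEC61 channel, Ostc and Krtcap2 belong to the oligosaccharyltransferase, Sec11a is the other catalytic subunit of the signal peptidase and Srprb anchors the receptor of the signal recognition particle. Further oligosaccharyltransferase genes of this list differed less, with Tmem258 at -0.19, Magt1 at -0.13, Ost4 at -0.10 and Tusc3 at 0.16. In the list 7 genes were higher, with Tusc3 and Srp72 (0.15) the highest.

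The other folding enzymes had a median of -0.10, with 23 of 36 lower. By at least 0.322, 3 (8.33%) were lower and 1 was higher, against 6.5% and 7.22% of all genes. Erp44, which retains folding proteins in the early secretory pathway, had 6.83 in DMEM/F12 and 7.29 in DMEM, and Dnajb14, a DnaJ protein of the ER membrane, had 6.82 in DMEM/F12 and 6.19 in DMEM (1.55-fold higher). Vesicle export and retrieval had a median of -0.11 with 30 of 41 lower, but 2 genes (4.88%) were lower by at least 0.322, a share under that of all genes. Kdelr3, a receptor that returns chaperones to the ER, had 7.45 in DMEM/F12 and 8.01 in DMEM (1.47-fold lower), and the coat gene Copg2 had 7.31 in DMEM/F12 and 6.79 in DMEM.

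The other lists had medians near 0. Of the 28 other degradation genes, 14 were lower, with a median of -0.01. Against 6.5% of all genes, 1 gene (3.57%) was lower by 0.322 or more. This was Ube2j2, a ubiquitin-conjugating enzyme of the ER membrane, with 6.41 in DMEM/F12 and 7.09 in DMEM (1.60-fold lower), while the deglycosylating enzyme gene Ngly1 had 4.62 in DMEM/F12 and 4.28 in DMEM. In the PERK and ATF4 arm, which limits protein synthesis and induces amino acid genes, 0 of 19 genes passed 0.322, and the differences ran from -0.21 to 0.19 with a median of 0.00. Atf4 had 6.92 in DMEM/F12 and 7.13 in DMEM, its target Chac1 had 6.0 in DMEM/F12 and 6.20 in DMEM, and Ddit3 (CHOP) had 5.60 in DMEM/F12 and 5.54 in DMEM. The 21 other stress regulators also had a median of 0.00, with Ufm1 at -0.33 and Wfs1 at 0.33.

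**Figure D4:**
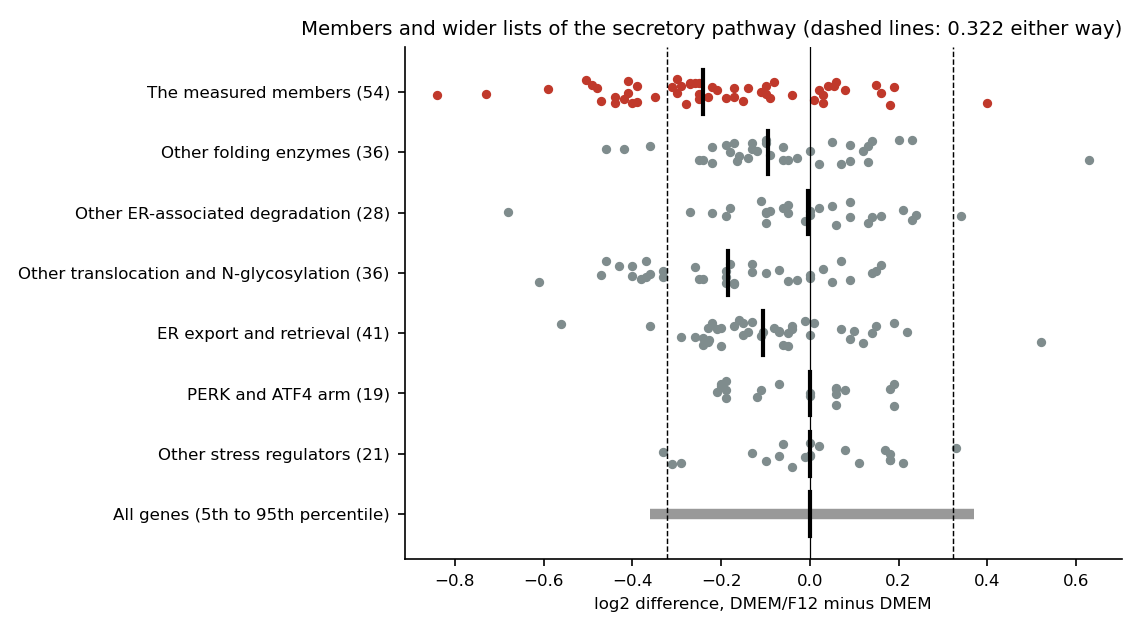
Differences in log2 value between DMEM/F12 and DMEM (x axis) for the 54 measured genes (red) and for 6 wider lists (gray, measured genes counted beside each name; y axis, with a random vertical offset within a list). Each dot is 1 gene, black bars are medians, dashed lines mark 0.322 either way, and the gray bar spans the 5th to the 95th percentile of all genes (-0.36 to 0.37); the medians are -0.24 for the 54 genes, -0.19 for other translocation and N-glycosylation genes and 0.00 for the PERK and ATF4 arm.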

How the data were processed

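RNA of BV2 cells kept in DMEM/F12 or in DMEM was hybridized to 1 Affymetrix Mouse Gene 1.0 ST array per medium, and samples were grouped by the submitters' labels. The authors deposited log2 expression values with 2 decimals, for which the submitters' processing notes name Expression Console and Transcriptome Analysis Console. Their versions, how probes were summarized, whether arrays were normalized to each other and the build were not given in the sources used here. Of 28944 clusters, 21789 had exactly 1 symbol in the platform's annotation, 1621 several and 5534 none. Clusters of a gene were averaged (999 of 19938 genes had several), with no further scaling and no filter. All 54 measured members matched RefSeq by Entrez number. With 1 array per medium, the number of arrays limits precision.

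The members and lists were chosen with earlier results of these data known, among them lower values of unfolded protein response genes in DMEM/F12. Counts at log2 differences of 0.322 and 0.585 (1.5-fold) and medians stand in for tests. Members at 0.322 or more, the extremes of each role group, the main chaperones, sensors and channel, and the 2 largest differences above background in each wider list were named; the other members were named after their values were seen. The promoter search was chosen after the differences were seen. Promoter windows came from RefSeq (GRCm38.p6). The alternatives were median centring, quantile normalization, loess centring (span 0.3), only genes above background, dim values raised to background, the brightest cluster per gene, only genes with 1 cluster, differences within 0.05 of 0 left out, and each role group left out. Python 3.11.15 was used with numpy 2.4.6, pandas 2.3.3, statsmodels 0.14.6 and matplotlib 3.10.9, and the steps were tested on simulated data.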

Additional observations from a re-analysis of the deposited data

How the results depend on the processing

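With no replicate spread to go by, shifts of up to 0.1 (log2) in a value and of up to 1.5 times in a count were treated as no move. Within these limits no count or median of the 54 genes moved, and no median of a role group or of a wider list did. Counts within the role groups and the wider lists were not rerun. The median difference of the 54 genes lay between -0.26 and -0.19, with -0.19 found without the genes around BiP. Between 39 and 42 genes were lower, 14 to 17 by at least 0.322 and 2 or 3 by at least 1.5-fold. In each alternative run for these counts, 1 gene was higher by at least 0.322 and 0 by at least 1.5-fold. The 3 scalings gave medians of -0.26 to -0.22, with the median of all genes shifted by at most 0.02. The near-zero median of the other degradation genes lay between -0.03 and 0.00 under the scalings. Among single genes only Pdia4 moved: its difference was -0.32 with the brightest cluster alone, just short of 0.322. Vimp is the gene lost at 1.5-fold when the 3 genes under newer symbols are left out, an alternative chosen after seeing the data. No paired analysis was possible because there was 1 array in each medium. All 54 genes were above background, so the filter on dim genes could not change their counts.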
